A study of Mus musculus with 8 samples.

Results

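The CLEC genes are the mouse genes whose symbols begin with Clec and a number. They were taken as every protein-coding entry of the expression table with such a symbol, leaving out Clec14a and Clec4f, which left 31 of the table's 21949 protein-coding genes and 45777 genes in all. Of these 31 members, 23 had enough reads to be tested and 8 did not. RNA was sequenced from primary hepatic stellate cells of male wild-type C57BL/6 mice, the vitamin A-storing pericytes of the liver sinusoid, and no age is given in the sources used here. All cells were transfected, 4 samples with a control siRNA (siControl) and 4 with an siRNA against PAK4 (siPAK4), while the cells were activating, per the series' design text. PAK4 is a serine/threonine kinase of the p21-activated family that acts downstream of CDC42. The comparison asks what differs in the RNA when PAK4 is low. Nothing in the labels says whether the replicates were separate animals, isolations or wells, so p-values measure no more than the scatter of these samples, and that scatter may be technical.

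C-type lectin receptors fold around a domain first known for binding sugars in the presence of calcium, although many members bind proteins, lipids or crystals instead. Several of them sit on macrophages and dendritic cells and sense fungi, mycobacteria and dying cells: the activating ones signal through ITAM motifs, their own or those of the adaptors Fcer1g and Tyrobp, to the kinase Syk and then Card9, Bcl10 and Malt1. Inhibitory members carry an ITIM motif that recruits the phosphatases Ptpn6 and Ptpn11. In the liver, Kupffer cells, dendritic cells and sinusoidal endothelium are well known for expressing family members, and other members are secreted or lie inside the cell.

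The libraries held 55728583 to 61535063 counts each. Pak4 itself gave 915 to 1028 reads in siControl and 311 to 447 in siPAK4, so every siPAK4 library was below every siControl library (log2 fold change −1.44 ± 0.118, adjusted p = 9.4e-06). Here and below the error of a log2 fold change is its standard error, that of a mean is the SD over n = 4 libraries, and adjusted p-values come from edgeR's quasi-likelihood test, adjusted after Benjamini and Hochberg for every gene tested. Levels are in CPM, the reads of a gene relative to its TMM-scaled library, and a gene is said to have risen or fallen only at an adjusted p under 0.05. Of all 17975 tested genes, 26.9% passed, 12.4% as higher and 14.5% as lower in siPAK4. Markers of the labelled cell type were present in part: the collagen gene Col1a1 averaged 328 CPM and the proteoglycan gene Dcn 425 CPM in siControl, while Lrat, which esterifies vitamin A, was near 0 (0.0269 CPM). RNA of other liver cells was plentiful, with Adgre1, the macrophage antigen F4/80, at 386 CPM and the endothelial gene Pecam1 at 1085 CPM in siControl. The 14 macrophage and Kupffer cell markers summed to 9371 to 10829 CPM in siControl and 5301 to 8470 CPM in siPAK4. siPAK4 replicate 3 stood apart in that sum, with 8470 CPM against 5301 to 6103 CPM in the other siPAK4 libraries, so results are also given without it. Most of the gap came from the lysozyme gene Lyz2 (6741 CPM against 3985 to 4569 CPM), and the other 13 markers summed to 1729 CPM against 1317 to 1534 CPM. Of the 14 markers 11 were highest of the siPAK4 libraries in replicate 3, while Cd5l and C1qa were not and Mertk was lowest there. In such bulk RNA, fewer cells of a type and less RNA per cell cannot be told apart.

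Among the 23 tested CLEC genes, 5 rose in siPAK4 (Clec4e, Clec9a, Clec4g, Clec4d and Clec2d), 2 fell (Clec12a and Clec1b) and 16 did not pass. These 7 are 30.4% of the tested members, against 26.9% of all tested genes, so in this fit the share of the family that passed was near the background. It is not a result about the family. Higher calls made up 21.7% of the tested members and lower calls 8.70%, beside 12.4% and 14.5% of all genes. The median log2 fold change of the members was −0.14, beside 0.0052 for all tested genes, with 10 members above 0 and 13 below. The groups did not overlap in CPM for 6 members, or 26.1% (Clec4e, Clec9a, Clec4d, Clec2d, Clec12b and Clec16a, all with siPAK4 above siControl), beside 28.8% of all tested genes. Without siPAK4 replicate 3 the same 5 genes rose, while the lower calls went from 2 to 7: Clec12a and Clec1b were joined by Clec4a2, Clec4a3, Clec4b1, Clec5a and Clec10a. In that fit 30.2% of all genes passed, with 2496 of 18220 genes higher and 2998 lower. The count of lower calls also depended on other libraries: it was 0 without siControl replicate 3, siPAK4 replicate 2 or siPAK4 replicate 4, and 1 without siControl replicate 1, siControl replicate 2 or siPAK4 replicate 1. The higher calls were 3 without siControl replicate 4. With any library other than siPAK4 replicate 3 left out, 19.4% to 23.1% of all genes passed.

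**Figure D1:**
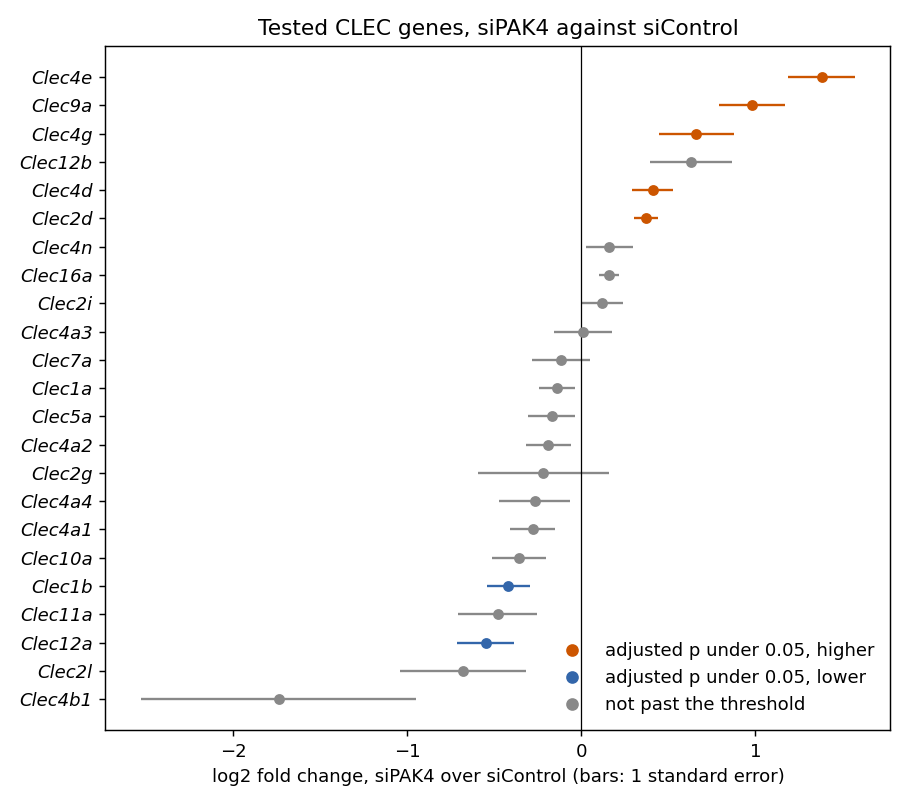
Log2 fold change of siPAK4 over siControl for the 23 tested CLEC genes, on the horizontal axis, with bars of 1 standard error. Clec4e lies farthest right at 1.38, 5 genes in orange were called higher, 2 in blue (Clec1b and Clec12a) were called lower, and the widest bar belongs to Clec4b1, which had at most 22 counts in a library.

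Levels between genes are compared in the deposited TPM, which are corrected for length. In siControl 4 members were at 100 TPM or more, 14 between 1 and 100 TPM and 9 above 0 but under 1 TPM. Clec4n, which encodes the mannan receptor Dectin-2, led with a mean of 1448 TPM (1316 to 1608 over the 4 libraries), the 81st highest level of all genes in the table. Clec7a, the beta-glucan receptor Dectin-1, followed at 415 TPM (329 to 474) and Clec4d, the receptor MCL, at 367 TPM (331 to 412), and the ranges of these neighbours overlapped. Clec2d came next at 104 TPM (100 to 111), apart from Clec4e, the receptor Mincle, at 56.2 TPM (42.0 to 79.0). The ranges of Clec4e and Clec4a2 (42.9 TPM, 40.7 to 45.9) overlapped, as did those of Clec12a (37.3 TPM) with Clec1a (35.8 TPM). Clec4a3, Clec4a1 and Clec5a then lay at 28.9, 24.9 and 21.0 TPM, each overlapping the next. Below them were Clec1b at 15.6, Clec16a at 14.0, Clec10a at 8.58 and Clec2i at 7.15 TPM. Clec4g, Clec4a4 and Clec11a lay between 1.10 and 2.29 TPM.

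In siPAK4 the order of the most abundant members differed: Clec4n led again at 1652 TPM, but Clec4d (497 TPM, 432 to 597) stood above Clec7a (389 TPM, 325 to 509), with overlapping ranges. Clec4e stood at 149 TPM (120 to 180) and its range overlapped that of Clec2d (138 TPM, 133 to 145). The TPM of all members together came to 2378 to 2885 in siControl and 2633 to 3760 in siPAK4, the highest being siPAK4 replicate 3. Clec4n supplied 52.9% to 55.7% of that sum in every library, and Clec4n, Clec7a and Clec4d together supplied 82.2% to 85.5%.

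**Figure D2:**
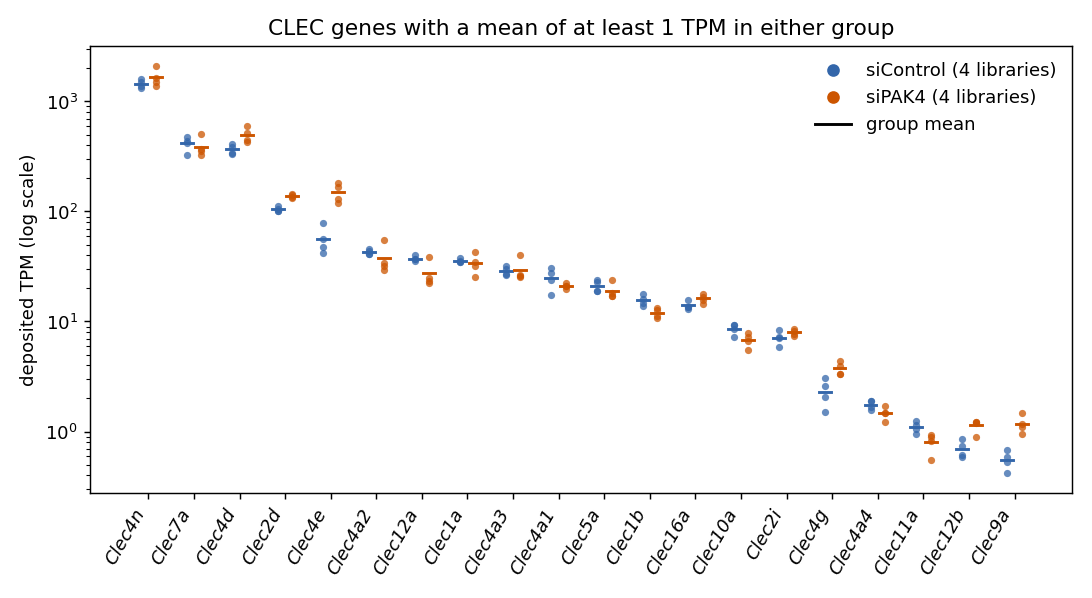
Deposited TPM on a log scale for the 20 CLEC genes with a mean of at least 1 TPM in either group, ordered by their siControl mean; points are libraries (4 per group) and lines are group means. Levels span from 1448 TPM for Clec4n to 0.554 TPM for Clec9a in siControl. The siPAK4 points of Clec4e, Clec4d, Clec2d, Clec9a, Clec4g and Clec12b lie wholly above their siControl points. Those of Clec1b and Clec11a lie wholly below.

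The genes of the Dectin-2 cluster lie together on mouse chromosome 6 (RefSeq, GRCm38.p6, the build also called mm10), over 368 kb, in the order Clec4a1, Clec4a3, Clec4a4, Clec4b1, Clec4a2, Clec4b2, Clec4n, Clec4d and Clec4e. Of the 8 that were tested, 2 rose, none fell and 6 did not pass (median log2 fold change −0.09). Over all tested genes 12.4% rose and 14.5% fell. A count over so few members is not a result about the cluster. The genes that rose, Clec4d and Clec4e, are neighbours at the end of the cluster, within 27.8 kb of each other from the start of Clec4d to the end of Clec4e. Both proteins act with the adaptor Fcer1g and recognise the mycobacterial glycolipid trehalose dimycolate, and Mincle also binds a protein released by dying cells. The sequence before each start site is shown because these are the neighbouring genes that rose together in the cluster. The lines give the 250 bases before the RefSeq start on the gene's own strand, at chr6:123289872-123290121 (minus strand) for Clec4e and chr6:123261857-123262106 (plus strand) for Clec4d; capitals mark a match to the C/EBP motif described with the promoter comparison.
Clec4e: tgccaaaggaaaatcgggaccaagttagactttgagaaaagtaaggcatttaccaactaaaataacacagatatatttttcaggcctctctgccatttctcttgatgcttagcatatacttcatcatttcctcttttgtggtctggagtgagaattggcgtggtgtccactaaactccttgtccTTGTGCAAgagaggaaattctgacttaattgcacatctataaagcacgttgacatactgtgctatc
Clec4d: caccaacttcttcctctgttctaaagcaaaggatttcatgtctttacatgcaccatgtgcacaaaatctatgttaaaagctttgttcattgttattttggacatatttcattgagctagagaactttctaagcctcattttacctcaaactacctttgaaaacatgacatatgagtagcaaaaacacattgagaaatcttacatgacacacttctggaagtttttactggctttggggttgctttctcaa
The match TTGTGCAA in Clec4e begins 66 bases before the start, and no motif searched was matched in the 250 bases of Clec4d.

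Clec4e (chr6:123281789-123289871, minus strand) had 90.6, 49.3, 66.4 and 57.6 CPM in siControl and 143, 195, 205 and 143 CPM in siPAK4. All siPAK4 libraries were above all siControl libraries, with siControl replicate 1 the highest of its group. The mean went from 66.0 ± 17.8 to 171 ± 33.2 CPM (SD, n = 4 each), a 2.60-fold rise (log2 fold change 1.38 ± 0.191, adjusted p = 0.000598). This was the largest rise among the tested members, and without siPAK4 replicate 3 it was 1.28 (adjusted p = 0.00981).

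Clec4d (chr6:123262107-123275268, plus strand) had 251, 213, 238 and 214 CPM in siControl and 258, 295, 391 and 272 CPM in siPAK4. The groups did not overlap, but the lowest siPAK4 library lay just above the highest siControl library, and siPAK4 replicate 3 was the highest. It rose: the siControl mean was 229 ± 18.6 CPM and the siPAK4 mean 304 ± 59.8 CPM, a log2 fold change of 0.41 ± 0.117 (adjusted p = 0.0233). Without siPAK4 replicate 3 the log2 fold change was 0.26 (adjusted p = 0.00832). Clec4d did not pass without siControl replicate 2 (0.37, adjusted p = 0.0713) or without siControl replicate 4 (0.38, adjusted p = 0.0600).

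Clec4n, the third gene at this end of the cluster, had 818, 739, 902 and 803 CPM in siControl and 784, 841, 1235 and 792 CPM in siPAK4. The groups overlapped, and siPAK4 replicate 3 was alone above 902 CPM. Its log2 fold change of 0.16 (SE 0.134) did not pass (adjusted p = 0.412), and without siPAK4 replicate 3 it was −0.02 (adjusted p = 0.860).

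Ratios between members within a library do not depend on how the libraries are scaled to each other, and these ratios were chosen after the values were seen, so they carry no test. The ratio of Clec4e to Clec4n counts was 0.111, 0.0668, 0.0736 and 0.0718 in siControl and 0.182, 0.232, 0.166 and 0.180 in siPAK4. The groups stood apart and siPAK4 replicate 3 lay with its own group, here at its low end. The ratio of Clec4d to Clec4n counts was 0.306, 0.288, 0.264 and 0.266 in siControl and 0.329, 0.351, 0.316 and 0.344 in siPAK4, again without overlap. Relative to Clec4d, Clec4e was also higher in siPAK4, with a mean count ratio of 0.566 ± 0.0654 against 0.285 ± 0.0548 in siControl and no overlap between the groups.

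**Figure D3:**
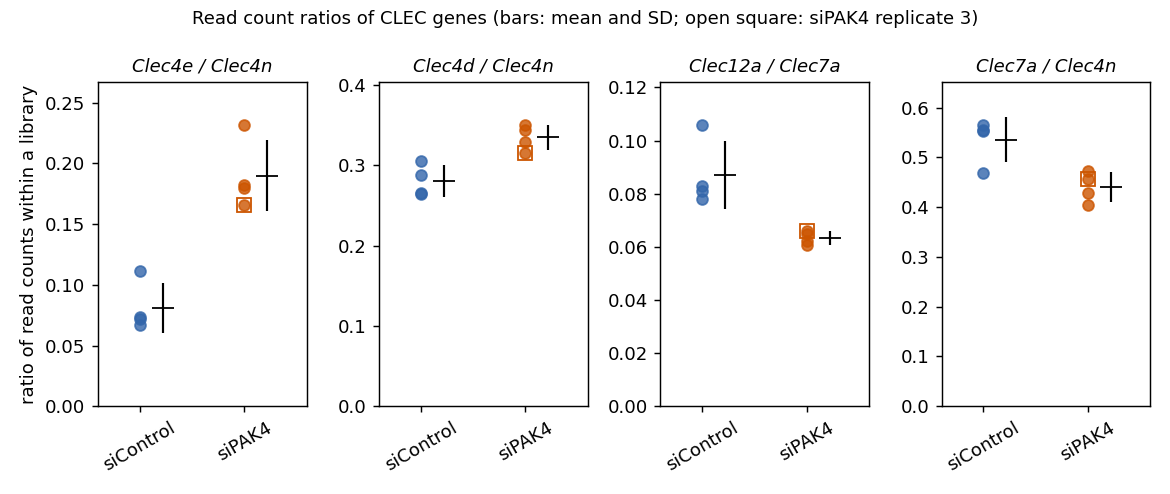
Ratios of read counts between CLEC genes within each library; points are libraries (4 per group), the bars beside them give the mean and SD, and the open square marks siPAK4 replicate 3. The ratios of Clec4e and Clec4d to Clec4n are higher in all siPAK4 libraries, that of Clec12a to Clec7a is lower in all of them, and those of Clec7a to Clec4n overlap.

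**Figure D4:**
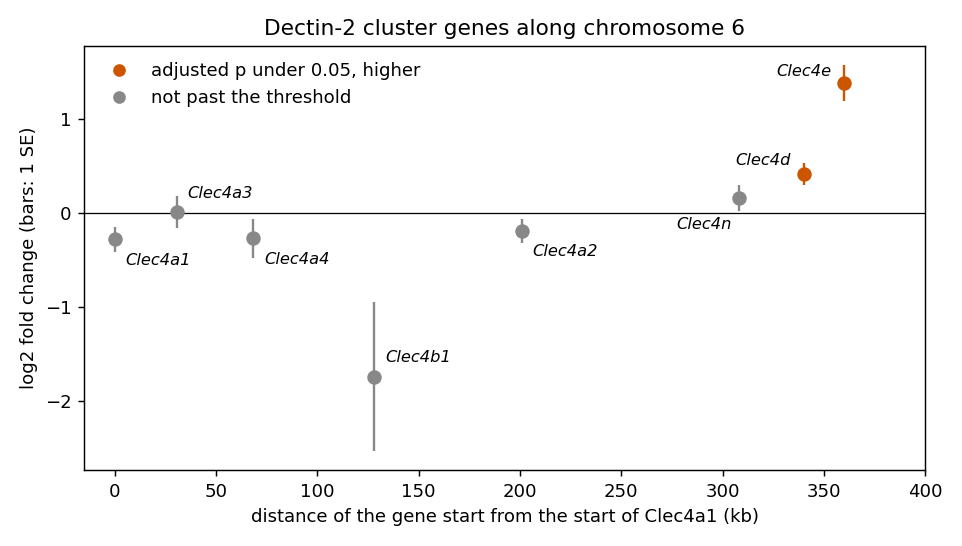
Log2 fold change of the 8 tested Dectin-2 cluster genes (bars: 1 standard error) against the distance of each gene's start from that of Clec4a1 in kb. Clec4d at 340 kb and Clec4e at 360 kb were called higher, and the other 6 did not pass.

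The remaining members of the cluster include the inhibitory receptor DCIR (Clec4a2, which carries an ITIM) and its relatives Clec4a1, Clec4a3 and Clec4a4. Clec4a2 had 37.5, 40.4, 45.1 and 41.4 CPM in siControl and 31.9, 30.3, 47.6 and 34.0 CPM in siPAK4 (log2 fold change −0.19, adjusted p = 0.296). Clec4a3 had 16.2, 18.0, 19.3 and 16.9 CPM against 14.4, 14.4, 25.9 and 16.1 CPM (0.01, adjusted p = 0.973). In both genes siPAK4 replicate 3 was above every siControl library, while replicates 1, 2 and 4 were below every siControl library. Without replicate 3 both passed as lower, Clec4a2 at −0.36 (adjusted p = 0.00200) and Clec4a3 at −0.23 (adjusted p = 0.0452). Clec4a1 did not show that pattern: it had 19.5, 22.4, 17.4 and 13.2 CPM in siControl and 14.2, 15.1, 15.0 and 15.5 CPM in siPAK4 (−0.28, adjusted p = 0.139). Its siControl values were the more scattered, and without siControl replicate 4, the lowest of them, it passed as lower (−0.40, adjusted p = 0.0101).

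The scarce Clec4a4 had 0.831, 0.965, 0.967 and 0.849 CPM in siControl and 0.709, 0.578, 0.932 and 0.767 CPM in siPAK4 (−0.27, adjusted p = 0.366). Its groups overlapped, and 15.7% of the 50-base stretches of its GENCODE transcripts also occur in Clec4a2, so reads could be shared. Clec4b1, an activating relative, had 22, 13, 11 and 19 counts in siControl and 0, 4, 16 and 0 in siPAK4 (−1.74 ± 0.791, adjusted p = 0.129), and 8.68% of its 50-base stretches occur in Clec4a2. Leaving out siPAK4 replicate 3, which held 16 of the group's counts, gave −3.54 (adjusted p = 0.00548). Clec4b2 was not tested, with 3, 0, 5 and 0 counts in siControl and 0 in every siPAK4 library. A count of 0 allows up to 3 counts, which is 0.0497 to 0.0542 CPM depending on the library, and that limit covers counting error only.

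The Dectin-1 cluster also lies on chromosome 6 and holds Clec7a, Clec12a, Clec12b, Clec1a, Clec1b and Clec9a. Of these 6, all tested, 1 rose, 2 fell and 3 did not pass (median log2 fold change −0.13). Beside them 12.4% of all tested genes rose and 14.5% fell, and so small a count is not a result about the cluster. Clec7a, which signals through a single ITAM-like motif of its own, had 454, 346, 499 and 454 CPM in siControl and 317, 361, 564 and 374 CPM in siPAK4. The groups overlapped, with both the highest and the lowest value in siPAK4, and the difference did not pass (−0.12, adjusted p = 0.652; −0.32, adjusted p = 0.0532, without siPAK4 replicate 3).

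Clec12a, an inhibitory receptor with an ITIM that binds uric acid crystals, had 36.8, 36.6, 41.4 and 35.4 CPM in siControl and 19.7, 21.8, 37.2 and 24.3 CPM in siPAK4. Replicates 1, 2 and 4 of siPAK4 were far below siControl, and replicate 3 lay within the siControl range. It fell: the siControl mean was 37.6 ± 2.65 CPM and the siPAK4 mean 25.7 ± 7.86 CPM, a log2 fold change of −0.55 ± 0.163 (adjusted p = 0.0286). The call did not hold when 1 of 6 libraries was left out: siControl replicate 1 (−0.56, adjusted p = 0.0522), 2 (−0.56, 0.0577) or 3 (−0.50, 0.0806), or siPAK4 replicate 1 (−0.44, 0.0672), 2 (−0.47, 0.0826) or 4 (−0.52, 0.0707). It was −0.78 (adjusted p = 1.8e-05) without siPAK4 replicate 3. Within a library, Clec12a counts were 0.0811, 0.106, 0.0830 and 0.0780 of Clec7a counts in siControl and 0.0620, 0.0605, 0.0659 and 0.0650 in siPAK4. In this ratio, chosen after the values were seen, all 4 siPAK4 libraries including replicate 3 lay below all siControl libraries.

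Clec1b, the podoplanin receptor CLEC-2 of platelets and mouse Kupffer cells, had 8.42, 7.52, 9.71 and 8.35 CPM in siControl and 6.43, 5.31, 7.60 and 6.12 CPM in siPAK4. The groups touched only through siPAK4 replicate 3, which was just above siControl replicate 2. It fell: the siControl mean was 8.50 ± 0.903 CPM and the siPAK4 mean 6.36 ± 0.952 CPM, a log2 fold change of −0.42 ± 0.122 (adjusted p = 0.0247). It did not pass without siControl replicate 3 (−0.35, adjusted p = 0.0801), siPAK4 replicate 2 (−0.34, adjusted p = 0.0759) or siPAK4 replicate 4 (−0.40, adjusted p = 0.0608).

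Clec9a, the receptor DNGR-1 through which dendritic cells that cross-present antigen sense exposed actin filaments of dead cells, was scarce. It had 50, 46, 62 and 38 counts in siControl and 114, 96, 105 and 86 in siPAK4, so the groups did not overlap. In CPM the values were 0.903, 0.822, 1.05 and 0.672 against 1.97, 1.63, 1.75 and 1.47, and siPAK4 replicate 3 was not the highest. It rose: the siControl mean was 0.862 ± 0.159 CPM and the siPAK4 mean 1.70 ± 0.212 CPM, a log2 fold change of 0.98 ± 0.187 (adjusted p = 0.00251). Clec9a and its neighbour Clec1b overlap by 184 exon bases on the same strand, 5.59% of those of Clec9a and 3.61% of those of Clec1b. Clec1b was far more abundant (8.50 CPM in siControl) and fell in the same libraries. The part of reads from Clec1b in the Clec9a values was not tested. The summed level of the 7 dendritic cell markers was 86.3 to 101 CPM in siControl and 62.2 to 75.6 CPM in siPAK4, a gap carried by Itgax alone (65.7 against 36.2 CPM). The other 6 summed to 27.2 to 31.0 CPM in siControl and 27.2 to 39.1 CPM in siPAK4, most of it Zbtb46 (27.2 against 31.7 CPM, adjusted p = 0.140). Of the 4 that were tested Itgax fell and none rose (25.0% passed, beside 26.9% of all genes), although Zbtb46 rose with libraries scaled by their totals. Xcr1, a defining marker of the dendritic cells that carry DNGR-1, averaged 0.0515 CPM in siControl and was at 0 in siPAK4.

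Clec1a, an endothelial and dendritic cell receptor for a fungal melanin, had 51.6, 52.6, 57.6 and 56.2 CPM in siControl and 60.5, 48.2, 40.4 and 49.3 CPM in siPAK4. The groups overlapped, siPAK4 replicate 3 was the lowest library, and the difference did not pass (−0.14, adjusted p = 0.367). The 10 endothelial markers summed to 6591 to 6810 CPM in siControl, to 4974 to 5725 CPM in the other siPAK4 libraries and to 3974 CPM in siPAK4 replicate 3, and their part in the Clec1a values was not tested. Clec12b, an inhibitory receptor, had 0.397, 0.429, 0.577 and 0.495 CPM in siControl and 0.743, 0.578, 0.815 and 0.818 CPM in siPAK4. The groups were apart by a hair, with 0.577 and 0.578 CPM at the boundary, and the log2 fold change of 0.63 (SE 0.235) did not pass (adjusted p = 0.0674). With libraries scaled by their totals it passed (0.72, adjusted p = 0.0330).

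The Clec2 genes encode short surface proteins of which several are ligands of the Klrb1 receptors of natural killer cells. Of 8 members 4 were tested, and 1 rose, none fell and 3 did not pass (median log2 fold change −0.05), where 26.9% of all tested genes passed. Clec2d, known as Clr-b, binds the inhibitory receptor Klrb1b and marks healthy cells. Its upstream sequence is shown because Clec2d was one of the members that passed under every alternative fit and one of only 2 members with a match to the NF-kB motif. The line gives the 250 bases before its RefSeq start at chr6:129180365-129180614 (plus strand), with matches to the NF-kB motif (first) and to the interferon-response element (second) in capitals.
Clec2d: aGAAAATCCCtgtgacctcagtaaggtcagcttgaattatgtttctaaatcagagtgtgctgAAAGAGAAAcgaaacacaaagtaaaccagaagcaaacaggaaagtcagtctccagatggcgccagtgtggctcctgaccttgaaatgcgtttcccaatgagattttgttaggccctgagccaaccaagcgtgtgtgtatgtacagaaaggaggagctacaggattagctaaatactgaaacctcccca
The NF-kB match GAAAATCCC, which reads as the motif on the other strand, begins 249 bases before the start, and the match AAAGAGAAA begins 188 bases before it.

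Clec2d (chr6:129180615-129186535) had 55.1, 56.5, 59.7 and 64.9 CPM in siControl and 75.7, 69.7, 83.7 and 75.8 CPM in siPAK4. Every siPAK4 library was above every siControl library. The mean rose from 59.1 ± 4.33 to 76.2 ± 5.75 CPM, a 1.29-fold change with a small error (log2 fold change 0.37 ± 0.0706, adjusted p = 0.00262). Clec2i, a relative, had 7.71, 6.32, 9.06 and 7.96 CPM against 7.66, 8.30, 9.72 and 8.06 CPM, which overlapped (0.12, adjusted p = 0.511). Clec2g at 0.237 CPM (−0.22, adjusted p = 0.720) and Clec2l at 0.539 CPM in siControl (−0.68, adjusted p = 0.192) did not pass either. Of the Clec2 genes that were not tested, Clec2e had 10, 10, 7 and 4 counts in siControl and 4, 3, 0 and 0 in siPAK4, and Clec2f had 8, 6, 5 and 9 against 8, 16, 3 and 0. Clec2h had 4 counts in siPAK4 replicate 1 alone, and Clec2j had 0 in all 8 libraries.

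Of the other membrane receptors, 1 rose and 2 did not pass, where 26.9% of all tested genes passed. Clec4g, the receptor LSECtin of liver sinusoidal endothelium, had 71, 103, 53 and 89 counts in siControl and 126, 108, 131 and 156 in siPAK4, or 1.28, 1.84, 0.899 and 1.57 against 2.18, 1.84, 2.18 and 2.66 CPM. The groups met at 1.84 CPM, while in TPM they did not overlap (1.49 to 3.05 against 3.30 to 4.40). It rose: the siControl mean was 1.40 ± 0.404 CPM and the siPAK4 mean 2.21 ± 0.337 CPM, a log2 fold change of 0.66 ± 0.214 (adjusted p = 0.0388). This call did not hold when 1 of 5 libraries was left out: siControl replicate 1 (0.62, adjusted p = 0.0918), 3 (0.50, 0.0902) or 4 (0.72, 0.0539), or siPAK4 replicate 1 (0.67, 0.0648) or 4 (0.56, 0.104). An antisense gene, Gm16553, covers 146 exon bases of Clec4g, 5.93% of them, and the strand setting of the counts is not given in the sources used here. Of the 10 endothelial markers 2 rose and 6 fell, so 8 passed, where 26.9% of all tested genes passed. The rises were Tek (0.32, adjusted p = 0.0193) and Fcgr2b (0.25, adjusted p = 0.034). The falls were led by Emcn (−1.08, adjusted p = 1.21e-06) and Cdh5 (−0.63, adjusted p = 0.0102). They also included Stab2 (−0.47, adjusted p = 0.00956) and Lyve1 (−0.49, adjusted p = 0.0115). Kdr (0.01, adjusted p = 0.974) and Pecam1 (−0.17, adjusted p = 0.179) did not pass.

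Clec5a, the receptor MDL-1, which signals through Tyrobp, had 39.2, 33.5, 41.9 and 34.3 CPM in siControl and 28.0, 29.3, 44.1 and 30.7 CPM in siPAK4. siPAK4 replicate 3 was above all siControl libraries and the other siPAK4 libraries were below all of them, and the difference did not pass (−0.17, adjusted p = 0.387). Without that library Clec5a was lower (−0.34, adjusted p = 0.00533). Clec10a, the galactose-binding receptor MGL1 of macrophages and dendritic cells, had 4.91, 6.59, 5.97 and 6.70 CPM against 3.59, 4.30, 5.82 and 5.18 CPM (−0.36, adjusted p = 0.116). It too passed as lower without siPAK4 replicate 3 (−0.47, adjusted p = 0.0305), and 9.02% of its 50-base stretches occur in another gene, mostly its paralog Mgl2.

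Among the secreted members only Clec11a, an osteogenic growth factor, was tested. It had 1.03, 1.14, 0.866 and 1.01 CPM in siControl and 0.691, 0.476, 0.865 and 0.869 CPM in siPAK4; the groups crossed at 0.866 and 0.869 CPM and the difference did not pass (−0.48, adjusted p = 0.146). Clec3b, the plasminogen-binding tetranectin, had 2 counts in siControl replicate 3 and 0 elsewhere, and Clec3a and Clec18a had 0 in all 8 libraries. Clec16a, an intracellular protein of mitophagy and not a lectin receptor, had 36.8, 35.8, 37.3 and 36.6 CPM in siControl and 42.1, 43.2, 40.4 and 38.1 CPM in siPAK4. The groups did not overlap and the spread was small, yet the log2 fold change of 0.16 (SE 0.0580) missed the threshold (adjusted p = 0.0610). It passed with DESeq2 (adjusted p = 0.0339) and with libraries scaled by their totals (adjusted p = 0.00983).

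The part taken by siPAK4 replicate 3 differed from member to member. Its CPM over the mean of the other 3 siPAK4 libraries had a median of 1.28 over the 23 tested members and of 1.00 over all tested genes, and it was above 1.2 for 15 of 23 members and for 2979 of 17975 genes. Of the members with at least 1 TPM it was highest for Clec4a3 (1.73), Clec12a (1.70), Clec7a (1.61), Clec4n (1.53) and Clec5a (1.5). It was 1.28 for Clec4e, 1.14 for Clec2d, 1.03 for Clec9a and 0.980 for Clec4g, the genes that rose besides Clec4d (1.42). The lowest value was that of Clec1a (0.767). The monocyte markers also summed higher in that library, to 53.0 CPM against 36.6 to 41.3 CPM in the other siPAK4 libraries, and the part of these cells in the members' values was not tested.

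**Figure D5:**
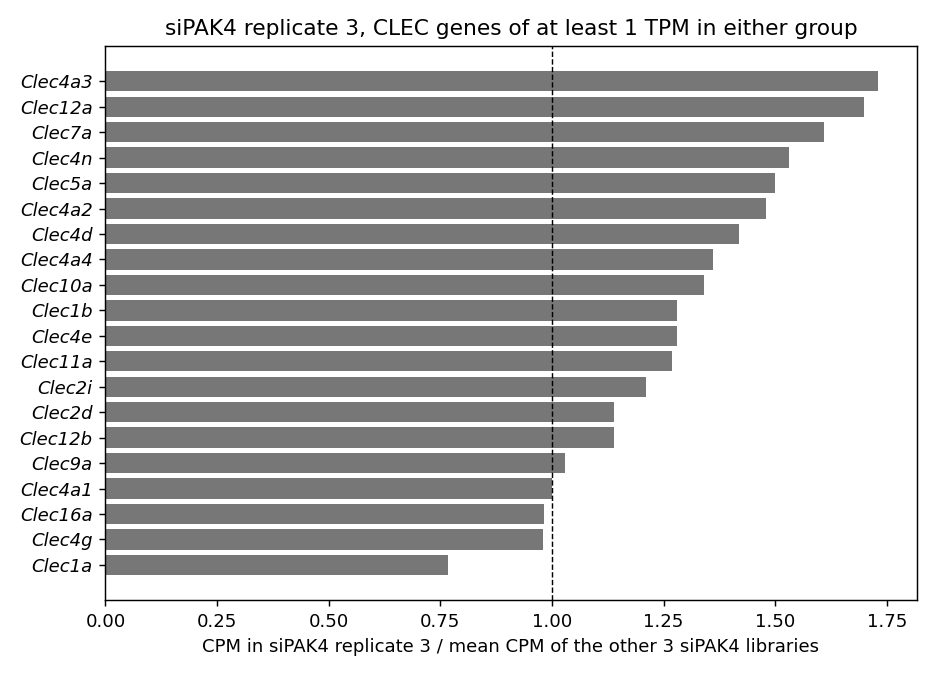
CPM in siPAK4 replicate 3 divided by the mean CPM of the other 3 siPAK4 libraries, for the 20 CLEC genes with at least 1 TPM in either group; the dashed line marks a ratio of 1. Clec4a3 (1.73) and Clec12a (1.70) have the longest bars, and Clec1a (0.767) the shortest.

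Of the 25 genes through which CLEC receptors signal, all tested, 5 rose, 7 fell and 13 did not pass (median log2 fold change −0.10), so 48.0% passed beside 26.9% of all genes. The rises included the NF-kB subunits Nfkb1 (125 to 181 CPM, 0.54, adjusted p = 5.09e-05) and Relb (21.9 to 31.1 CPM, 0.51, adjusted p = 0.000608), the kinase Src (0.38, adjusted p = 0.000637) and Malt1 (0.37, adjusted p = 0.0127). The falls included the calcineurin-regulated factor Nfatc2 (8.60 to 4.98 CPM, −0.79, adjusted p = 0.00175), with Inpp5d, Ptpn6, Ptpn11, Blnk, Btk and Lcp2. Syk (0.11, adjusted p = 0.215), Card9 (−0.25, adjusted p = 0.125) and the adaptors Fcer1g (−0.23, adjusted p = 0.0542) and Tyrobp (−0.32, adjusted p = 0.210) did not pass. Without siPAK4 replicate 3 the list had 7 rises and 12 falls (76.0% beside 30.2% of all genes), with Fcer1g, Tyrobp and Card9 then among the falls. With libraries scaled by their totals it had 8 rises and 2 falls (40.0% beside 31.9%), in a fit that moved all genes the same way, from 2227 higher and 2605 lower to 3877 higher and 1859 lower.

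Of 7 known binding partners of CLEC proteins, 5 were tested, and 40.0% of these passed beside 26.9% of all genes. Pdpn, which encodes podoplanin, the ligand of the Clec1b product, had 178, 172, 173 and 173 CPM in siControl and 179, 235, 250 and 204 CPM in siPAK4 and rose (0.32, adjusted p = 0.0206), while Clec1b fell. siPAK4 replicate 1 was barely above siControl. Itga11, an integrin chain that binds the Clec11a protein, fell from a low level of 0.660 to 0.141 CPM (−2.21, adjusted p = 0.0144). Klrb1b, the receptor for the Clec2d product, was scarce (0.315 and 0.317 CPM) and did not pass (adjusted p = 0.980), nor did Klrb1c or Sf3b3. T and NK cell markers were scarce too, with 8 of them summing to 1.23 to 1.83 CPM in all libraries.

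The other genes with a C-type lectin domain numbered 43, of which 22 were tested: 5 rose, 6 fell and 11 did not pass. Their median log2 fold change was −0.04, or 0.04 with libraries scaled by their totals, where 6 rose and 5 fell. Without siPAK4 replicate 3, also 5 rose and 6 fell, which was 47.8% beside 30.2% of all genes. With all libraries kept, 11 of the 22 passed, beside 26.9% of all genes. The rises were led by the leukocyte-tethering selectins Selp (26.3 ± 5.62 to 114 ± 22.1 CPM, 2.11, adjusted p = 8.7e-06) and Sele (7.17 ± 1.65 to 31.0 ± 6.15 CPM, 2.11, adjusted p = 1.08e-05), with Colec10, Cd69 and Layn. The falls were led by the pericyte and fibroblast gene Cd248 (4.38 to 0.787 CPM, −2.47, adjusted p = 4.83e-05) and the anticoagulant receptor thrombomodulin, Thbd (−0.75, adjusted p = 7.37e-05), with Mrc2, Cd72, Cd93 and Colec12. Of 16 myeloid transcription factors, 3 rose, 5 fell and 8 did not pass (median −0.14), so 8 of the 16 passed, beside 26.9% of all genes. Without siPAK4 replicate 3 the same 3 rose and 7 fell, where 30.2% of all genes passed. Cebpd (43.2 to 102 CPM, 1.24, adjusted p = 5.94e-06), Cebpb (30.2 to 50.9 CPM, 0.75, adjusted p = 5.94e-05) and Klf4 rose. The falls included Irf5 (−0.44, adjusted p = 0.00861), Nr1h3 (−0.52, adjusted p = 0.0124), Spic and Maf.

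Promoters were compared over RefSeq windows of 300 bases, 250 before and 50 after a start site, found for 23 of the 31 members (26 windows) among 32851 windows in all. The C/EBP motif TTGCNNAA, searched on both strands, was in 6 of the 26 member windows and in 10.8% of all windows. Those 6 belong to 5 members (Clec4e, Clec12a, Clec11a, Clec16a and Clec2i), with overlapping windows of Clec2i counted separately. The NF-kB motif GGGANTTTC was in 2 of the 26, those of Clec2d and Clec2l, and in 1.11% of all windows. The interferon-response motif AAANNGAAA was in 8 of the 26 and in 10.6% of all windows. Those 8 belong to 7 members (Clec2d, Clec2e, Clec2h, Clec4a2, Clec4b1, Clec4d and Clec7a), with overlapping windows of Clec7a counted separately. The Clec4d match was at the first transcribed base. The AP-1 motif TGANTCA was in 6 of the 26 (Clec12a, Clec18a, Clec2e, Clec2g, Clec2h and Clec4a2) and in 7.81% of all windows. The PU.1 motif GAGGAAGT was in no member window and in 3.20% of all windows. The C/EBP motif was matched in Clec4e, which rose, and in Clec12a, which fell. A match is a description of the sequence and not a bound site.

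The marker lists beside these results moved as follows. Of the 14 macrophage and Kupffer cell markers 9 fell, among them Cd5l (283 to 42.0 CPM, adjusted p = 2.29e-06) and Vsig4 (7.47 to 0.981 CPM, adjusted p = 1.55e-05), none rose, and Adgre1 (0.14, adjusted p = 0.335) and Cd68 (−0.04, adjusted p = 0.719) did not pass. Of the 5 monocyte markers 2 rose and 2 fell. The 5 platelet markers summed to 239 to 341 CPM in siControl and 356 to 467 CPM in siPAK4. Pf4 and Ppbp rose, while Itga2b did not pass (−0.12, adjusted p = 0.571) and Gp9 and Gp1bb averaged at most 0.120 CPM. Of the 3 platelet markers that were tested 66.7% passed, beside 26.9% of all genes. The 9 neutrophil markers summed to 14.8 to 22 CPM over all libraries, with Retnlg and Ly6g at 0. The 4 B cell markers summed to at most 1.02 CPM. Of the 9 tested stellate cell markers 5 fell and none rose, so 55.6% passed beside 26.9% of all genes. With libraries scaled by their totals 4 fell, and Reln and Dcn rose (66.7% beside 31.9%). Hepatocyte markers summed to 1.24 to 2.84 CPM in siControl and 5.47 to 15.3 CPM in siPAK4. The part of any of these cells in the changes of Clec4e, Clec4d, Clec2d, Clec12a or Clec1b was not tested.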

How the data were processed

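Polyadenylated RNA of 8 samples was sequenced from stranded mRNA libraries made from 1 µg of total RNA each, all labelled batch 1, per the labels' protocols. The authors deposited 1 table that gives FPKM, TPM and whole-number counts of reads for 45777 genes, per the file headers. The counts were used as deposited. The deposited TPM values, scaled by the authors to gene length and a fixed total, served for levels between genes and for alternative fits, and the deposited FPKM values were not used. Per the submitters' processing notes, the tools were HISAT2 2.1.0, StringTie 2.1.3b and Bowtie2 2.3.4.1, besides FastQC 0.11.7 and bcl2fastq 2.20.0, on build mm10. How reads were counted, with which strand setting and with what rule for shared reads, is not given in the sources used here.

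With edgeR 4.0.16, filterByExpr at a minimum count of 10 kept 17975 genes and TMM scaled the libraries, which held 55728583 to 61535063 counts. The groups were compared by the quasi-likelihood test of edgeR (robust, no block), adjusted after Benjamini and Hochberg for every gene tested, at a threshold of 0.05. The procedure was also run on simulated counts. Its recovery of known changes is not reported here, and the simulation held no outlying library such as siPAK4 replicate 3. Replicates differed beyond sampling noise (chi-square per degree of freedom 13.7 to 74.8), and each was counted as 1 sample. That scatter does not show whether they were separate animals, isolations or wells. Alternatives used DESeq2 1.42.0, limma 3.58.1 (voom, and log2 of TPM plus 1 or 0.1), other scalings and filters, a replicate block, and each library left out.

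The members, gene lists and marker lists were chosen with earlier results of these data known. Every member is named, and from each list up to 4 genes past the threshold by adjusted p. The other list genes and the single marker genes, the adaptors among them, were chosen after their values were seen. Positions and promoters came from RefSeq (GRCm38.p6), where all 31 gene identifiers matched, and shared 50-base stretches and exon overlap from GENCODE M21 on the same build. No protein sequence was used, and a few list genes are counted in their lists but not reported here by name.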

Additional observations from a re-analysis of the deposited data

Results flagged for a closer look

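In 2 cases a single library stood far from the other 3 of its group, by a gap past Dixon's 95% critical value for 4 samples, the gap being taken as a share of the group's whole range. Both were siPAK4 replicate 3. Clec4n had 1235 CPM there, against 784, 792 and 841 CPM in the other siPAK4 libraries, a gap of 0.874 of the range. Clec4a3 had 25.9 CPM there, against 14.4, 14.4 and 16.1 CPM, a gap of 0.852 of the range. The 23 tested members in 2 groups gave 46 such groups, and chance alone marks about 1 in 20. The macrophage marker sum was also highest of the siPAK4 libraries in that one (8470 CPM against 5301 to 6103 CPM). Lyz2 made up 6741 CPM of it, and without Lyz2 the sum was 1729 CPM against 1317 to 1534 CPM. The part of these cells in either value was not tested.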

How the results depend on the processing

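Clec4e (log2 fold change 1.26 to 1.57), Clec9a (0.48 to 1.09) and Clec2d (0.32 to 0.45) passed in all 17 alternative fits, as did Pak4 (−1.56 to −1.25). Over the 385 alternative values of single members, 348 kept their direction and side of the threshold, 16 lost a call, 15 gained one in the same direction and 6 changed sign. One of the 6, Clec4a3 without siPAK4 replicate 3, also gained a call, which makes 16 gains. The losses were those of Clec12a, Clec1b, Clec4d and Clec4g given in the report, all in fits that left out 1 library. Such fits gave 3 to 5 higher and 0 to 7 lower calls among the members, and 3543 to 5494 calls over all genes; the 7 lower calls came without siPAK4 replicate 3, and 0 came without siControl replicate 3 or siPAK4 replicate 2 or 4. The sign changed for Clec4a3 (0.01 in the report) with limma-voom (−0.03), the replicate block (−0.03), without siControl replicate 1 (−0.03) or 4 (−0.01) and without siPAK4 replicate 3 (−0.23), and for Clec4n without siPAK4 replicate 3 (−0.02). Over the fits that left out 1 library, Clec4a3 ranged from −0.23 to 0.10 and Clec4n from −0.02 to 0.23. The cause was not tested. Clec16a gained a call with DESeq2, library totals, a filter of at least 1 CPM and without siPAK4 replicate 4 (0.19, adjusted p = 0.0422), and Clec12b with library totals and in both TPM fits. Clec4b1 gained one as lower with limma-voom and in both TPM fits. The median of the members was 0.013 when 17 of them remained at a mean of at least 1 CPM.

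Scaling by library totals gave 3877 higher and 1859 lower genes, so 67.6% of calls were higher, against 2227 and 2605 (46.1%) with TMM; the median of all genes was then 0.0938, and 7 members were called higher and 2 lower. With the replicate block 4587 genes passed, and the same 7 members. Same-numbered samples did not deviate together (correlations −0.047 to 0.104), and only siPAK4 replicates 1 and 3 correlated best with their own number, so the numbers are not taken as pairs. At this depth the 8 members with too few reads can be listed only by their counts.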
